A study of Mus musculus with 36 samples.

Results

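The genes described here are 42 cell cycle and DNA replication genes, listed by name and not by any measured value, in spleen dendritic cells (DCs) of mice given poly IC. The list held 16 genes of DNA replication and S phase and 26 genes of mitosis and cytokinesis. Of the 42 genes, 38 had a probe on the array and 32 passed the detection filter, out of 9606 genes tested in all. All 16 replication genes were among the 32, with 16 of the 26 mitosis genes. No probe carried the names Mki67, Ccnb1, Aurkb or Racgap1 in the annotation used here. The probes for Ccna2, Ccnb2, Bub1, Cenpe and Ube2c were detected on 0 of the 36 arrays and that for Kif20a on 1, so these mitosis genes gave no level. Of the 32 genes, 29 were detected on all 36 arrays, Mcm7 on 34, Ccne1 on 33 and Pcna on 31.

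Poly IC is a synthetic double-stranded RNA that mimics a viral infection and evokes type I interferons. The study used mixed bone marrow chimeras, that is, mice on the C57BL/6 background, young adult at use, whose blood cells came from wild-type (WT) and mutant marrow together, so that both kinds of DC shared the same cytokines. RNA of sorted CD11chi CD3- DX5- B220- splenic DCs was measured on Illumina MouseRef-8 arrays, and the groups were sorted apart by the CD45 allele. The groups were unstimulated DCs (9 arrays), WT DCs 4 h after 50 µg poly IC (8 arrays) and 14 h after it (6 arrays), DCs lacking the type I interferon receptor (IFNAR-/-) at 4 h (5 arrays) and 14 h (3 arrays), and DCs lacking the poly IC sensors MDA5 and TLR3 (PRR-/-) at 4 h (5 arrays). The study describes 2 kinds of control, chimeras given PBS and PRR-/- mice given poly IC, and the labels do not say which kind each unstimulated sample was. It pooled WT and mutant DCs among these controls after finding no significant difference between them. The labels give no genotype for an unstimulated sample, so no mutant group here has a baseline known to share its genotype. All comparisons with the unstimulated group share these same samples. The question asked was whether poly IC changed the cycling genes of DCs, when, and with or without the interferon receptor.

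A cell that is about to divide first licenses its replication origins by loading the ring-shaped MCM helicase, then fires them in S phase while it makes nucleotides, and later builds a spindle, parts its chromosomes and pinches into daughter cells. Most genes of the first steps are regulated by E2F factors and those of the later steps by the DREAM and other MuvB complexes. A dividing population carries both sets of transcripts. Most spleen DCs do not divide, but some do, and a bulk sample mixes both. Fewer dividing cells and less RNA per cell cannot be told apart in these samples.

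Promoter windows were compared because the replication and mitosis genes carry different DNA words near their start sites. Each window held 250 bases before and 50 after the start of a gene (RefSeq, GRCm38.p6), and 15 of the 16 measured genes in each set had one. An E2F word (TTTCGCGC, TTTGGCGC, TTTCCCGC or TTTGCCGC on either strand) stood in 6 of 15 replication windows (40%) and 1 of 15 mitosis windows (6.67%), against 2.26% of all 32851 windows. The 6 genes were Mcm3, Mcm5, Mcm6, Cdc6, Cdt1 and Uhrf1, and the mitosis gene was Cdk1. The cell cycle homology region (CHR, TTTGAA on either strand) stood in 13 of 15 mitosis windows (86.7%) and 1 of 15 replication windows (6.67%), against 17.9% of all windows. The NF-Y box CCAAT on either strand stood in 13 of 15 mitosis windows (86.7%), in 9 of 15 replication windows (60%) and in 37.4% of all. The interferon-stimulated response element (ISRE, GAAA repeated after 2 bases of any kind, on either strand) stood in 0 of 15 replication windows and 2 of 15 mitosis windows (Bub1b and Cdca3, 13.3%), against 3.44% of all. A match describes letters only, and these words may overlap each other. The windows of 3 genes on which the results below turn are given in full, with capitals marking the words found. Mcm5 (chr8:75109259-75109558, plus strand) held 2 overlapping E2F words and 3 NF-Y boxes, Kif23 (chr9:61946750-61947049, minus strand) held an NF-Y box and a CHR just after its start, and Tyms (chr5:30073576-30073875, minus strand) held none of the 4 words.
Mcm5: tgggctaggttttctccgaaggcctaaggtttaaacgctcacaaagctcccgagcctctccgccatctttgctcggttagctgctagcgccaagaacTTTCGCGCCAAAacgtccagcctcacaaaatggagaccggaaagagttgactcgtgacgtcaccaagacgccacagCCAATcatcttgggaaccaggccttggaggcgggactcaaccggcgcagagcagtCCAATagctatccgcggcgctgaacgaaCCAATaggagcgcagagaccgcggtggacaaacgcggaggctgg
Kif23: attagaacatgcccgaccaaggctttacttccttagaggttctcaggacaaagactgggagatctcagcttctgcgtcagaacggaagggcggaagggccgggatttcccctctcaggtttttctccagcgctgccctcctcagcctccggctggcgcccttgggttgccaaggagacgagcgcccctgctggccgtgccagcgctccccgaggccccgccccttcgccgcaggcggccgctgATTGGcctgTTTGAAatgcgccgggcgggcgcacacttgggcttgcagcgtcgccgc
Tyms: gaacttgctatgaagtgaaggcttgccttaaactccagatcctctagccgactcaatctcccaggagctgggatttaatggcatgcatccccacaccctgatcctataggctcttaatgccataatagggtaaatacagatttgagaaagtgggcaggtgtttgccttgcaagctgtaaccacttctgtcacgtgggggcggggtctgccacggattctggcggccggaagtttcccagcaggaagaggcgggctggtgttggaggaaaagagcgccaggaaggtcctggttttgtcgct

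**Figure D1:**
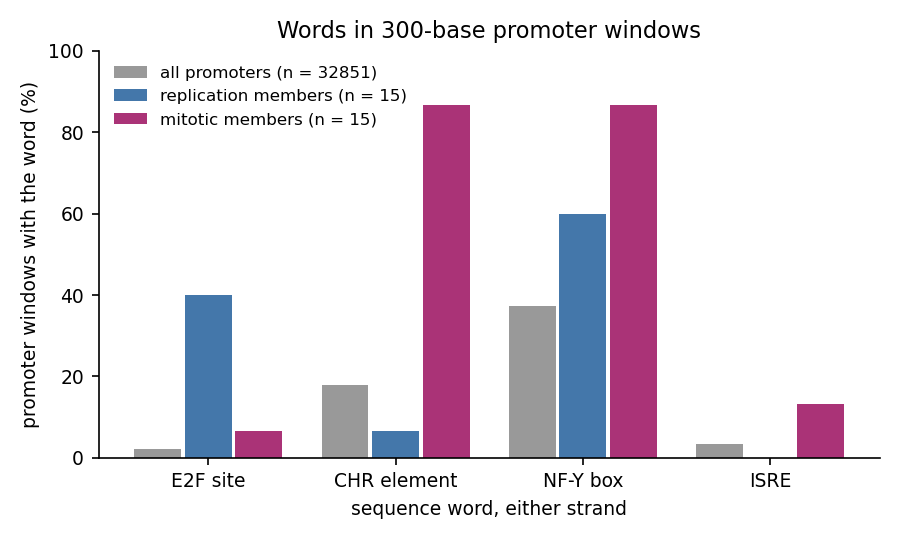
Percent of 300-base promoter windows (y axis) that held each DNA word (x axis), for the measured replication genes, the measured mitosis genes and all 32851 windows. The E2F site stood in 40% of replication windows and the CHR element in 86.7% of mitosis windows.

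The DC label was checked before the genes were compared. The conventional DC markers Itgax (CD11c) and Zbtb46 were detected on all 36 arrays and Flt3 on 1. Group means of log2 signal ran from 8.21 to 9.20 for Itgax and from 9.06 to 10.03 for Zbtb46. The 4 of 5 measured markers summed to between 83890 and 112400 signal units in every group. That sum lay almost wholly in H2-Ab1 (group means 15.54 to 15.75) and Cd74 (15.53 to 15.73), so it says little of Itgax and Zbtb46. Isg15, an interferon-induced gene, averaged a log2 signal of 9.56 in unstimulated samples, 14.22 in WT and 14.21 in PRR-/- samples at 4 h, 10.11 in IFNAR-/- samples at 4 h, 13.12 in WT and 10.16 in IFNAR-/- samples at 14 h. The MDA5 gene Ifih1 had a detected probe on 0 of 5 PRR-/- arrays and 8 of 8 WT 4 h arrays, whereas the Ifnar1 probe was detected on no array and so checks no label. Arrays 1 and 2 of the unstimulated, PRR-/- and IFNAR-/- 4 h groups differed by less than the noise between other arrays and were averaged (replicate 1-2), which left 33 samples. At 4 h there were 8 WT samples and 4 of each mutant genotype, at 14 h 6 WT samples and 3 lacking IFNAR, and 8 samples were unstimulated. A legend of the study describes each 4 h sample as a pool of several mice. The labels do not state which samples came from separate mice, and p-values measure only the spread between these samples. After the values were seen, 20 samples were placed in 3 sets of alike arrays. For all 20 the closest sample of another group was in their own set. This is no independent check, because the same values gave the sets. No 14 h sample was given a set, and neither were unstimulated 6 to 9. Whether the 14 h samples belong to a set was not tested. No label names a batch, so time and batch cannot be told apart for the 14 h samples.

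At 4 h after poly IC, the 32 genes together were called no more often in WT DCs than genes in general (21.9% lower and 9.38% higher). Among them a part of the replication genes was lower and the mitosis genes moved in both directions. By limma with Benjamini-Hochberg adjustment over all genes, 7 of the 32 genes were lower than in unstimulated DCs (29.6% of all genes were) and 3 were higher (16.9% of all genes). The lower genes were 6 replication genes and 1 mitosis gene, and the higher genes were all of mitosis. The count of lower genes was 3 against unstimulated 1 to 5 alone (2 of replication) and 4 against unstimulated 6 to 9 alone (4 of replication), settings added after seeing the data. Only 1 gene, Tpx2, also changed 2-fold or more (7.19% of all genes). The median log2 difference was -0.25 over the replication genes and 0.11 over the mitosis genes, which was -0.085 relative to all genes with arrays scaled to a common median. In PRR-/- DCs 4 genes were lower (24.2% of all genes) and 1 higher (13.1%), with 1 past the 2-fold limit (7.28%). The 4 lower genes were Mcm4, Mcm5, Cdt1 and Uhrf1 and the higher gene was Tpx2, and without PRR-/- replicate 3 the count of lower genes was 0, by the methods' t-test 2. PRR-/- and WT DCs at 4 h differed 2-fold in 0 of the 32 genes (0.302% of all genes), and 0 genes had an unadjusted p under 0.05 by limma or passed the t-test named in the methods. In IFNAR-/- DCs 2 genes were lower (11% of all genes) and 1 higher (6.97%). By limma 0 genes were past the 2-fold limit in that comparison (2.96% of all genes), also at an unadjusted p, and 0 by the methods' t-test.

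Mcm5 was the member whose 4 h samples stood apart from the unstimulated samples in all genotypes. Mcm5, a subunit of the replicative helicase, had log2 signals of 11.23 to 11.98 (median 11.57) in the 8 unstimulated samples and 10.54 to 11.09 (median 10.91) in the 8 WT 4 h samples. Its values were 11.05, 10.37, 11.21 and 10.93 in PRR-/- samples and 11.01, 11.18, 11.0 and 10.81 in IFNAR-/- samples. Every 4 h sample of the 3 genotypes lay below every unstimulated sample. The 4 h and unstimulated samples did not overlap for 1 member in WT, 1 in PRR-/- and 4 in IFNAR-/- DCs. Of all genes 17.9%, 20.8% and 10.6% did not overlap, so such separation was no more frequent among the members in WT and PRR-/- DCs. Mcm5 was 1.65-fold lower in WT DCs (log2 -0.72, SE 0.16, adjusted p = 0.000464), 1.62-fold lower in PRR-/- DCs (-0.69, SE 0.20, adjusted p = 0.00609) and lower in IFNAR-/- DCs (-0.58, SE 0.20, adjusted p = 0.0388). The IFNAR-/- call was lost when any of 4 unstimulated samples (replicates 3, 6, 7 or 8) or any of the 4 IFNAR-/- samples was left out, with differences of -0.64 to -0.52. Cdt1, which loads the helicase onto origins, ranged from 9.85 to 10.38 in unstimulated samples and from 9.55 to 10.11 in WT 4 h samples. In IFNAR-/- samples at 4 h it stood at 9.20, 9.49, 9.41 and 9.68, below all unstimulated samples. It was lower in WT DCs by -0.31 (adjusted p = 0.019) and in IFNAR-/- DCs by -0.72 (SE 0.13, adjusted p = 0.000201). The difference between the 2 genotypes was -0.41 (SE 0.13, adjusted p = 0.0206), and without IFNAR-/- replicate 1-2 it was -0.33 (adjusted p = 0.105), without replicate 4 -0.40 (adjusted p = 0.0544).

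Other helicase subunits moved less at 4 h. Mcm3 and Mcm4 were lower in WT DCs (log2 -0.37 and -0.46, adjusted p = 0.0163 and 0.00896), and Mcm4 was lower in PRR-/- DCs (-0.52, adjusted p = 0.0186). Mcm2, Mcm6 and Mcm7 stood at -0.31, -0.29 and -0.08 in WT DCs and did not pass the test. These are the brightest probes, and 2 other Mcm6 probes were lower in WT DCs by -0.50 and -0.43 (adjusted p over probes = 0.00349 and 0.0264), in PRR-/- DCs by -0.45 and -0.55 (0.0358 and 0.024) and in IFNAR-/- DCs by -0.58 for the former alone (0.0158). Mcm3 stood at -0.37 in IFNAR-/- DCs without passing, and at -0.41 with an adjusted p of 0.0493 when the replicate number was a block. In PRR-/- DCs the block gave -0.37 for Mcm3 (adjusted p = 0.0424), -0.35 for Cdt1 (adjusted p = 0.0777) and -0.60 for Cenpa (adjusted p = 0.017), where without it only Cdt1 of these passed. Tk1, the thymidine kinase of nucleotide salvage, was lower in WT DCs (-0.45, adjusted p = 0.0361). Uhrf1, which brings the maintenance DNA methyltransferase to replicated DNA, was lower in WT (-0.52, adjusted p = 0.00727) and PRR-/- DCs (-0.63, adjusted p = 0.0106) and stood at -0.08 in IFNAR-/- DCs. Its IFNAR-/- minus WT difference of 0.44 did not pass. Pcna, the sliding clamp of the replication fork, reached the floor of 6.49 in some samples and ranged from 6.49 to 8.32 in unstimulated and from 6.49 to 8.71 in WT 4 h samples. Its groups overlapped at 4 h, and it passed no test in any comparison of the fit. With sets of alike samples as a block, added after seeing the data, Pcna stood 0.57 higher in WT DCs at 14 h (adjusted p = 0.045). In IFNAR-/- DCs at 14 h it stood 1.14 higher (adjusted p = 0.00418). That block sets the 14 h samples against unstimulated 6 to 9 alone. Pcna there stood at 6.492, 6.551, 6.492 and 7.733, mostly at or near the floor, so no rise of Pcna is read from it.

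Tpx2, which activates the mitotic kinase Aurora A and nucleates spindle microtubules, was the member with the largest change at 4 h. It ranged from 7.08 to 8.55 (median 8.07) in unstimulated samples and from 8.04 to 10.28 (median 9.89) in WT 4 h samples, of which replicates 1 and 2 were low at 8.22 and 8.04. It stood at 7.99, 10.17, 10.10 and 9.47 in PRR-/- samples and at 7.06, 8.54, 8.65 and 8.42 in IFNAR-/- samples. The first sample of each mutant group was its lowest, and the WT and unstimulated ranges overlapped through those 2 low WT samples. Tpx2 was 2.87-fold higher in WT DCs (log2 1.52, SE 0.33, adjusted p = 0.000366) and 2.66-fold higher in PRR-/- DCs (1.41, adjusted p = 0.00677), and it stood at 0.14 in IFNAR-/- DCs (adjusted p = 0.923). The IFNAR-/- minus WT difference was -1.38 (SE 0.41, 2.60-fold, adjusted p = 0.0112). Within the 3 sets of alike samples it was -1.07, -1.56 and -1.32, and without IFNAR-/- replicate 1-2 it was -1.01 (adjusted p = 0.0913). The methods' t-test gave an adjusted p of 0.0794. Tpx2 and Cdt1 were the 2 genes lower in IFNAR-/- than in WT DCs at 4 h (9.75% of all genes). By limma 0 of the 32 genes were higher at the adjusted p (16.1% of all genes), 4 at an unadjusted p under 0.05 and 2 by the methods' t-test. Tpx2 was the 1 gene past the 2-fold limit (4.62% of all genes).

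Other mitosis genes at 4 h did not follow a shared direction. Cdk1, the kinase that starts mitosis, ranged from 8.10 to 9.03 (median 8.74) in unstimulated and from 8.95 to 9.32 (median 9.14) in WT 4 h samples, and stood at 9.17, 9.09, 9.16 and 9.37 in IFNAR-/- samples. The IFNAR-/- samples lay above all unstimulated samples, and the WT range overlapped the top of the unstimulated range. It was higher in WT DCs (log2 0.47, SE 0.12, adjusted p = 0.00164) and in IFNAR-/- DCs (0.51, adjusted p = 0.0125). With the replicate number as a block the IFNAR-/- difference was 0.47 (adjusted p = 0.0596), and without IFNAR-/- replicate 5 it was 0.45 (adjusted p = 0.0585). Nusap1, a spindle microtubule bundler, was higher in WT DCs (0.77, SE 0.21, adjusted p = 0.00296). Cenpa, the histone of centromeres, was lower in WT DCs (-0.49, adjusted p = 0.012; -0.27, adjusted p = 0.121 with arrays scaled to a common median; -0.35, adjusted p = 0.173 against unstimulated 6 to 9 alone), from 11.54 to 12.27 in unstimulated samples to 11.08 to 11.80 in WT samples. It stood at 11.93, 12.15, 11.89 and 11.87 in IFNAR-/- samples, all above the WT 4 h samples, and the IFNAR-/- minus WT difference was 0.48 (SE 0.20, adjusted p = 0.0716). Cenpa was the 1 member without overlap in that comparison (18.8% of all genes). Top2a, the topoisomerase that untangles chromosomes, ranged from 9.02 to 10.20 in unstimulated and from 9.53 to 10.44 in WT 4 h samples, and the groups overlapped without a call.

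**Figure D2:**
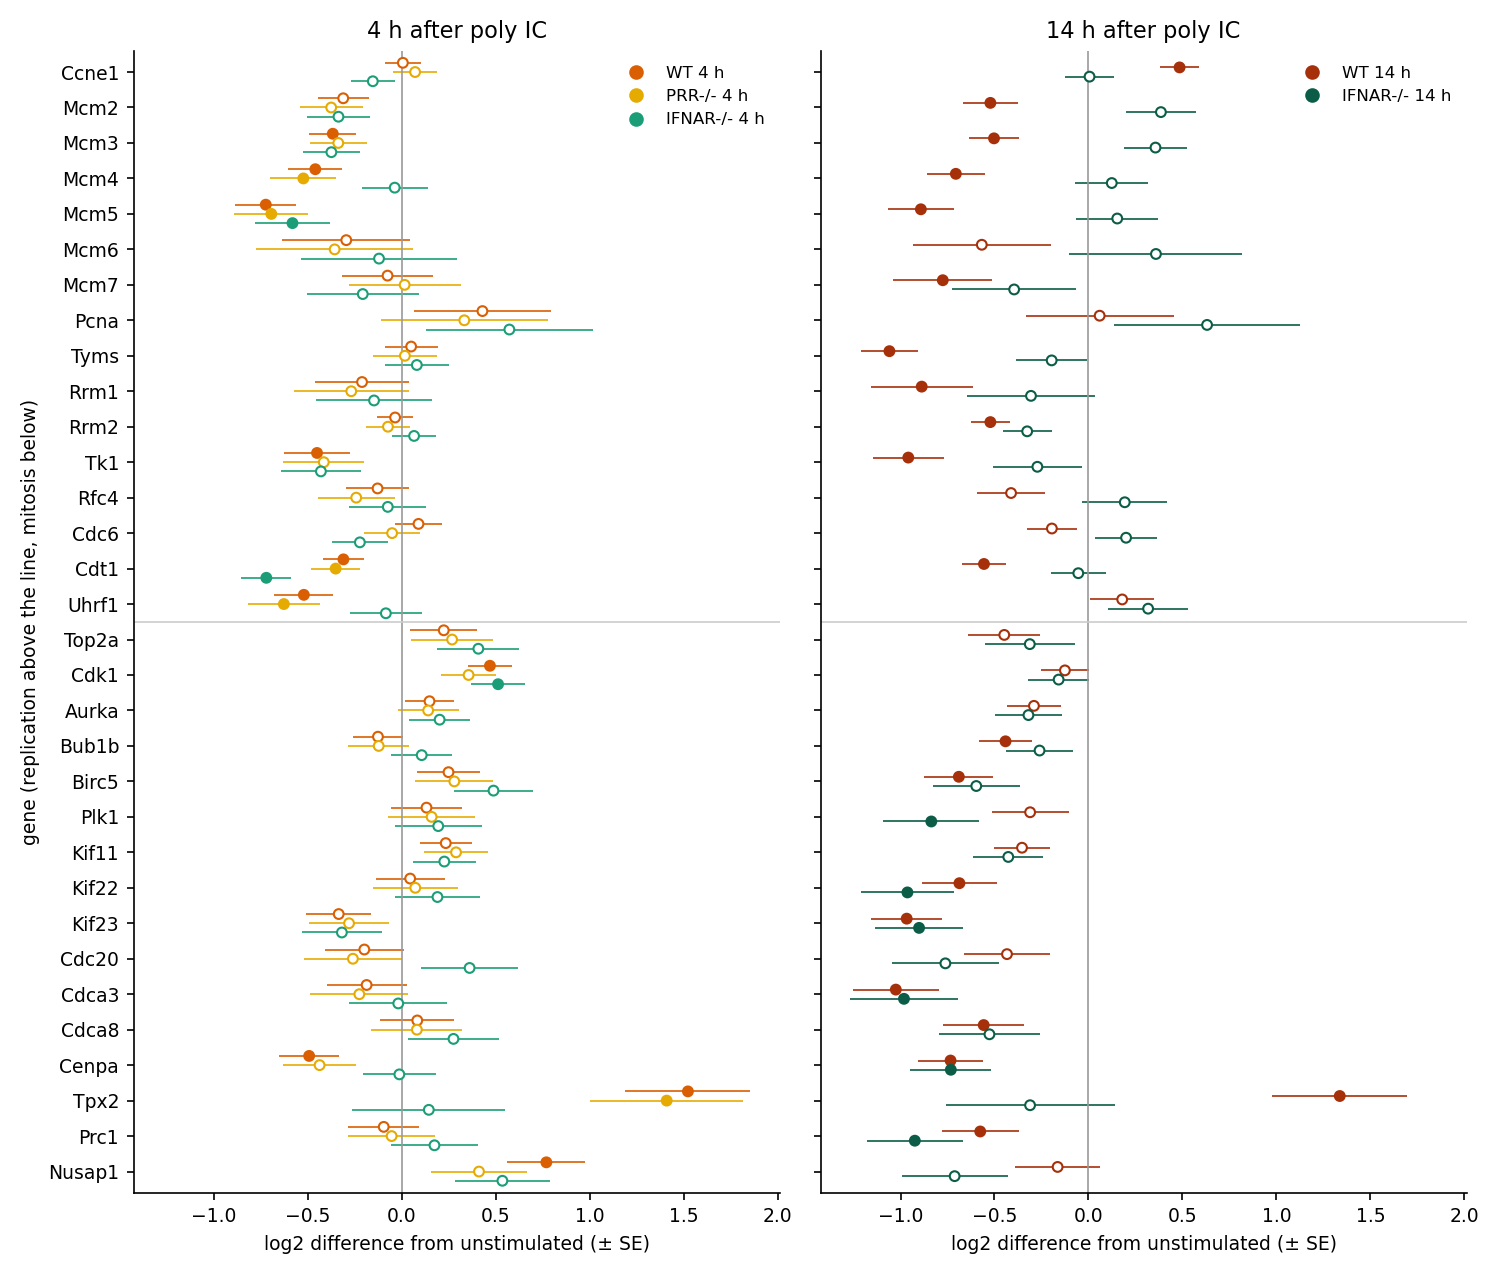
Log2 difference from unstimulated DCs (x axis, bars ± SE) for each of the 32 measured genes (y axis, replication genes above the grey line and mitosis genes below it) in WT, PRR-/- and IFNAR-/- DCs at 4 h and in WT and IFNAR-/- DCs at 14 h. Filled points had an adjusted p under 0.05, and the WT 14 h points of 18 genes lay below 0 and were filled.

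At 14 h genes of both sets were lower in WT DCs. Of the 32 genes, 18 were lower than in unstimulated DCs (27.7% of all genes) and 2 were higher (19.6%), with 3 past the 2-fold limit (11% of all genes): Tyms and Cdca3 below it and Tpx2 above. The lower genes were 10 of the 16 replication genes and 8 of the 16 mitosis genes. The median log2 difference was -0.54 over the replication genes and -0.45 over the mitosis genes, and 28 of the 32 differences were negative (55.7% of all genes were). The mean of the replication genes relative to the unstimulated mean was -0.18, -0.60, -0.60, -0.17, -0.61 and -0.79 in WT 14 h replicates 1 to 6, and that of the mitosis genes was -0.02, -0.46, -0.43, -0.04, -0.89 and -0.59. Replicates 1 and 4 stood near the unstimulated samples on both scores and the other 4 lay lower. The count of lower genes was between 16 and 22 when any 1 sample was left out. Summed signal of the 3 measured monocyte markers of 7 (Cd14, Fcgr1 and Lyz2, with Ccr2 detected on 0 arrays) was 626.7 to 5130 in WT 14 h samples, highest in replicate 4, against 6473 to 16510 in unstimulated samples. Most of that sum was Lyz2, with means of 10.33 in WT 14 h and 13.32 in unstimulated samples. Of the 3, 2 were lower and 1 was higher, Fcgr1 at 6.788 against 6.492. Of the markers of the DC subsets, 4 of 7 measured for cDC2 were lower and 1 higher (median -0.77, Cd209a -2.65), and 2 of 4 measured of 6 for cDC1 were lower and 1 higher (median -0.84, Xcr1 -1.24, Itgae -1.34). Summed cDC2 signal was 7647 to 10780 in WT 14 h and 5805 to 10370 in unstimulated samples, and summed cDC1 signal 2176 to 4099 and 2823 to 5497. The part of these markers in the result was not tested.

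**Figure D3:**
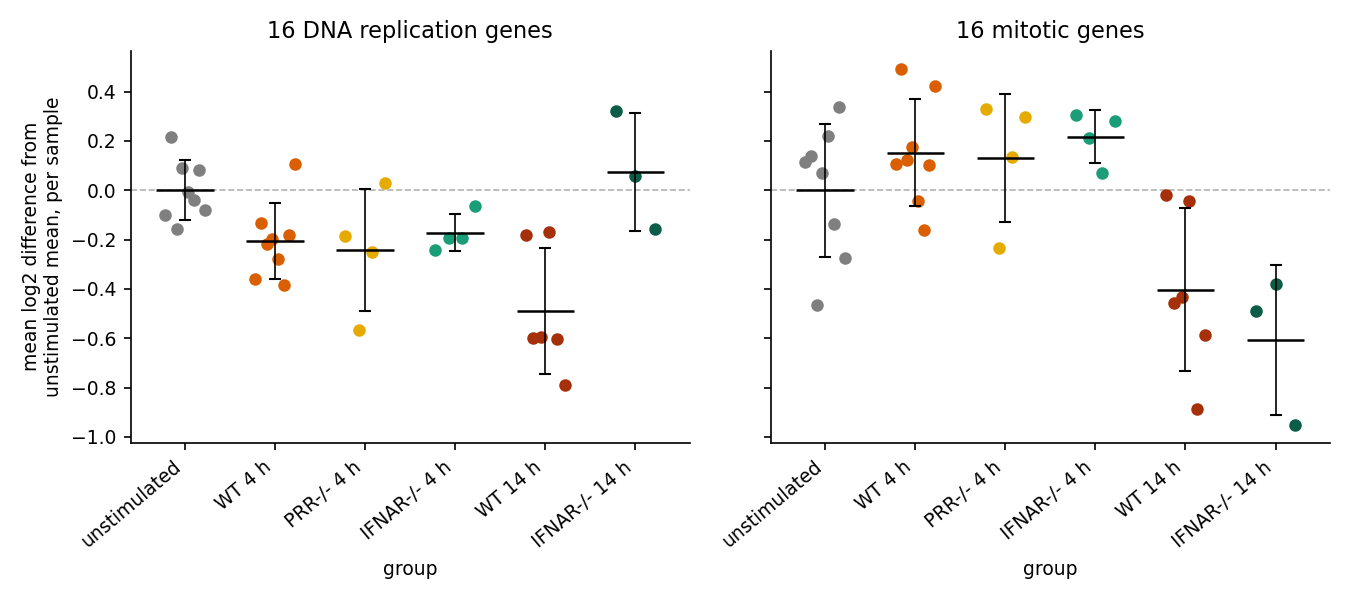
Mean log2 difference from the unstimulated mean (y axis) over the 16 measured replication genes and over the 16 measured mitosis genes, for each of the 33 samples by group (x axis), with bars for the group mean ± SD. WT 14 h samples averaged -0.49 and IFNAR-/- 14 h samples 0.07 for replication, and -0.40 and -0.61 for mitosis.

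Tyms and Tk1, genes of nucleotide supply, had the largest WT changes among the replication genes at 14 h. Tyms, thymidylate synthase, ranged from 9.52 to 10.10 (median 9.93) in unstimulated samples, from 9.50 to 10.34 (median 9.95) in WT 4 h samples and from 8.20 to 9.50 (median 8.85) in WT 14 h samples. Every WT 14 h sample lay below every unstimulated sample. Tyms was 2.08-fold lower than in unstimulated DCs (log2 -1.06, SE 0.15, adjusted p = 1.37e-06) and 2.16-fold lower than in WT DCs at 4 h (-1.11, adjusted p = 9.64e-07). Tk1 was 1.94-fold lower (-0.96, adjusted p = 0.000113), and Rrm1 and Rrm2, the subunits of ribonucleotide reductase, were lower by -0.89 and -0.52 (adjusted p = 0.00762 and 0.000126). Among the helicase subunits Mcm5 was lower by -0.89 (SE 0.17, 1.86-fold, adjusted p = 9.62e-05), Mcm7 by -0.78 (adjusted p = 0.016), Mcm4 by -0.71 (adjusted p = 0.000355), Mcm2 by -0.52 (adjusted p = 0.00409) and Mcm3 by -0.50 (adjusted p = 0.00257). Mcm5 ranged from 10.21 to 11.36 (median 10.48), and replicates 1 and 4 at 11.36 and 11.21 were the highest and the former lay within the unstimulated range. Mcm3 ranged from 7.59 to 8.25 and did not overlap the unstimulated range of 8.30 to 8.68. Mcm7 was detected on 4 of the 6 WT 14 h arrays. The brightest Mcm6 probe stood at -0.57 without passing, while 2 other Mcm6 probes were lower by -0.73 and -0.84 (adjusted p over probes = 0.000183 and 0.000138). Cdt1 was lower by -0.56 (adjusted p = 0.000223). Ccne1, the cyclin E1 of S phase entry, went the other way (0.48, SE 0.10, adjusted p = 0.00029), and Pcna, Rfc4, Cdc6 and Uhrf1 stood at 0.06, -0.41, -0.19 and 0.18 without passing.

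The mitosis genes lower in WT DCs at 14 h were spread over the spindle, the centromere and cytokinesis. Kif23, a motor of the midzone needed for cytokinesis, ranged from 9.17 to 9.90 (median 9.57) in unstimulated samples and from 8.14 to 9.15 (median 8.31) in WT 14 h samples. No WT 14 h sample reached the unstimulated range, although replicates 1 and 4 lay close below it at 9.15 and 9.12. Kif23 was 1.96-fold lower (log2 -0.97, SE 0.19, adjusted p = 8.98e-05), and Cdca3, which promotes mitotic entry, was 2.03-fold lower (-1.02, adjusted p = 0.000463). Cenpa was lower by -0.73 (adjusted p = 0.000753), the chromosome motor Kif22 by -0.69 (adjusted p = 0.00493) and the midzone bundler Prc1 by -0.58 (adjusted p = 0.0211). The Prc1 difference was -0.41 (adjusted p = 0.0899) without WT replicate 5. The passenger complex genes Birc5 and Cdca8 and the checkpoint kinase gene Bub1b were lower by -0.69, -0.56 and -0.44 (adjusted p = 0.00248, 0.0325 and 0.0119). Tpx2 was higher at 14 h too (1.34, SE 0.36, 2.53-fold, adjusted p = 0.00267), with samples from 8.82 to 9.76 above all unstimulated samples. Top2a stood at -0.45 (adjusted p = 0.0564), Cdk1 at -0.13, and Aurka, Plk1, Kif11 and Cdc20 at -0.29, -0.31, -0.35 and -0.43 without passing.

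Between 4 h and 14 h in WT DCs, 15 genes were lower (16.6% of all genes) and 2 were higher (20.7%), and 1 of them, Tyms, passed the 2-fold limit (6.33% of all genes). The lower genes were 10 of mitosis and 5 of replication, and all 16 mitosis genes had a negative difference, with a median of -0.59. Cdk1, higher at 4 h, was lower by -0.59 (adjusted p = 0.000466) and Top2a by -0.67 (adjusted p = 0.00642). Uhrf1, lower at 4 h, was higher by 0.70 (adjusted p = 0.00153), and Ccne1 was the other higher gene.

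In IFNAR-/- DCs at 14 h some mitosis genes were lower, and no replication gene passed the test in either direction (by limma at an unadjusted p under 0.05, 1 was lower and 2 were higher, and by the methods' t-test 0). Of the 32 genes, 6 were lower than in unstimulated DCs (5.41% of all genes), all of mitosis, and by limma 0 were higher (5.32%), while 2 were higher at an unadjusted p under 0.05 and 0 by the methods' t-test. By limma 0 genes were past the 2-fold limit (2.48% of all genes), also 0 at an unadjusted p and by the methods' t-test. The median was -0.65 over the mitosis genes, where all 16 differences were negative, and 0.14 over the replication genes, where 6 of 16 were negative (53.9% of all genes were). Kif23 stood at 8.53, 9.20 and 8.10 in the 3 IFNAR-/- samples, Kif22 at 8.47, 8.69 and 8.03, and Prc1 at 9.68, 9.75 and 8.67. Replicate 3 was the lowest for all of them, and replicate 2 fell within the unstimulated range for each. The differences were -0.90 for Kif23 (SE 0.24, adjusted p = 0.011), -0.96 for Kif22 (SE 0.25, adjusted p = 0.00997) and -0.92 for Prc1 (SE 0.26, adjusted p = 0.0175). Cdca3, Plk1 (a kinase of spindle assembly) and Cenpa were lower by -0.98, -0.84 and -0.73 (adjusted p = 0.0251, 0.0321 and 0.026). Without IFNAR-/- replicate 3 the count of lower genes was 0 and the mitosis median was -0.43, and without replicates 1 or 2 the count was 3 or 4. By the methods' t-test 1 gene was lower, and Kif23, Kif22, Prc1 and Cenpa had adjusted p-values of 0.05, 0.0782, 0.102 and 0.0939. The Kif23, Kif22, Prc1 and Cenpa differences were -0.65, -0.78, -0.58 and -0.45 without replicate 3 (adjusted p = 0.164, 0.113, 0.271 and 0.325), and the Kif23 difference was -0.86 without replicate 1 (adjusted p = 0.067).

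**Figure D4:**
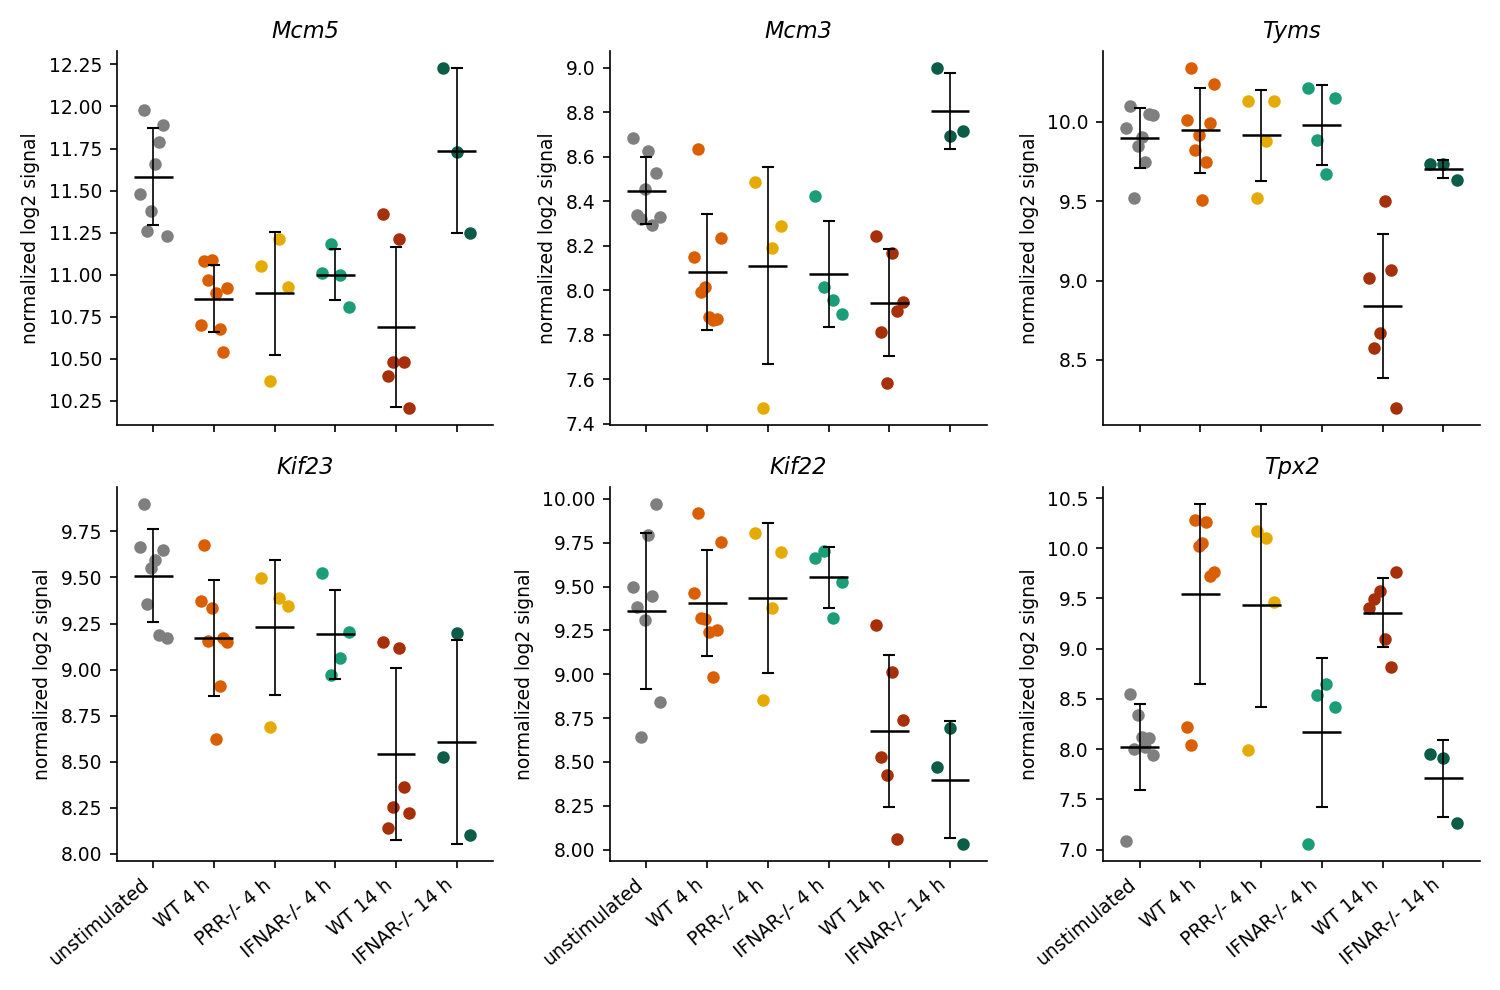
Normalised log2 signal (y axis) of Mcm5, Mcm3, Tyms, Kif23, Kif22 and Tpx2 in each sample by group (x axis), with bars for the group mean ± SD. For Mcm3 and Tyms the 3 IFNAR-/- 14 h samples lay above all 6 WT 14 h samples, and for Tpx2 below them.

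Set against WT DCs at 14 h, IFNAR-/- DCs had higher levels of part of the replication genes by limma. Of the 32 genes, 8 were higher (17.9% of all genes), namely Mcm2, Mcm3, Mcm4, Mcm5, Tyms, Tk1, Rfc4 and Cdt1, and 2 were lower (15.3%), Ccne1 and Tpx2. Mcm5 and Tpx2 passed the 2-fold limit (9.63% of all genes). The median difference was 0.59 over the replication genes, 15 of 16 positive, and -0.031 over the mitosis genes, 7 of 16 positive, which was 0.15 relative to all genes with arrays scaled to a common median. The groups did not overlap for 5 of the 32 genes (27.3% of all genes), and for the others the ranges overlapped. The count of higher genes was 5 without IFNAR-/- replicate 1, and by the methods' t-test it was 2, with adjusted p-values of 0.0688 for Mcm2, 0.0765 for Mcm5, 0.0709 for Tyms and 0.13 for Cdt1.

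Mcm3 stood at 9.00, 8.69 and 8.72 in the IFNAR-/- 14 h samples, all above the WT 14 h range of 7.59 to 8.25 and the unstimulated range. It was 1.81-fold higher than in WT DCs (log2 0.86, SE 0.18, adjusted p = 0.000308). Mcm2 stood at 9.34, 8.99 and 8.57 in IFNAR-/- samples and from 7.65 to 8.64 (median 7.91) in WT samples, and the lowest IFNAR-/- sample lay below the highest WT sample. It was 1.88-fold higher (0.91, SE 0.19, adjusted p = 0.000465). Mcm5 stood at 12.23, 11.73 and 11.25 in IFNAR-/- samples, of which replicate 3 fell below the highest WT sample at 11.36. The Mcm5 difference was 2.06-fold (SE 0.23 on the log2 scale, adjusted p = 0.000607). Tyms stood at 9.74, 9.73 and 9.64 in IFNAR-/- samples, all above the WT range of 8.20 to 9.50 and within the unstimulated range. It was 1.82-fold higher (0.86, SE 0.20, adjusted p = 0.00104). Mcm4 was higher by 0.83 (SE 0.20, adjusted p = 0.00177) and did not overlap, with 12.31, 11.91 and 11.65 in IFNAR-/- samples and values of 10.90 to 11.60 among WT samples. Cdt1, at 10.43, 10.08 and 9.83 in IFNAR-/- and 9.26 to 9.96 in WT samples, was higher by 0.50 (adjusted p = 0.011), and by 0.34 without IFNAR-/- replicate 1 (adjusted p = 0.146). Tk1 and Rfc4, a subunit of the clamp loader, were higher by 0.69 and 0.60 (adjusted p = 0.0321 and 0.0496).

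Tpx2 stood at 7.95, 7.92 and 7.27 in IFNAR-/- 14 h samples, below all WT 14 h samples, and was 3.13-fold lower (log2 -1.65, SE 0.47, adjusted p = 0.00683). Ccne1 was lower by -0.48 (adjusted p = 0.00671). For the mitosis genes other than Tpx2 no IFNAR-/- minus WT difference at 14 h passed the test, and the intervals were wide. The 95% confidence interval was -0.44 to 0.57 for Kif23, -0.81 to 0.26 for Kif22, -0.90 to 0.20 for Prc1, -0.46 to 0.46 for Cenpa, -0.38 to 0.31 for Cdk1 and -0.38 to 0.65 for Top2a. The intervals of Kif22, Prc1 and Top2a reached differences past 0.60 in size, while those of Cdk1 and Cenpa stayed under 0.48, the smallest size called among the replication genes.

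Markers of other cells also differed between the 14 h groups. The summed signal of the 3 measured monocyte markers was 32520 to 37210 in IFNAR-/- samples against 626.7 to 5130 in WT samples. Most of it was Lyz2 (means 14.98 and 10.33), and all 3 were higher in IFNAR-/- than in WT DCs. The 7 measured neutrophil markers of 11 summed to 2676 to 12340 in the IFNAR-/- group against 662.5 to 2909 in the WT group. The brightest were S100a8 and S100a9 (means 11.44 and 10.01 in the IFNAR-/- group), while Elane, Ngp and Camp stood near the floor in both. The 4 measured DC precursor markers of 6 (mainly Ly6c1) summed to 1777 to 3297 in the IFNAR-/- group and 726.8 to 1611 in the WT group. The 6 measured T cell markers of 7 ran the other way, 573.2 to 638.2 in the IFNAR-/- group against 3683 to 5532 in the WT group, through Cd8b1. All 11 red pulp macrophage markers were measured and summed to 9608 to 13990 in the IFNAR-/- group against 7344 to 13480 in the WT group. Of the 11, 6 were higher and past 2-fold in IFNAR-/- than in WT DCs (9.63% of all genes either way). The median over the 11 was 1.45, and the largest differences were C1qb 3.88, C1qc 3.04, Hmox1 2.85 and Slc40a1 2.43. Spic, Vcam1 and Axl went the other way without a call, with means of 11.22, 8.839 and 10.09 against 11.71, 9.085 and 11.2 in WT samples. Cd163 stood at the floor in both groups. Against unstimulated DCs 7 of the 11 were higher and past 2-fold (2.48% of all genes either way). The part of these markers in the replication gene differences was not tested.

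**Figure D5:**
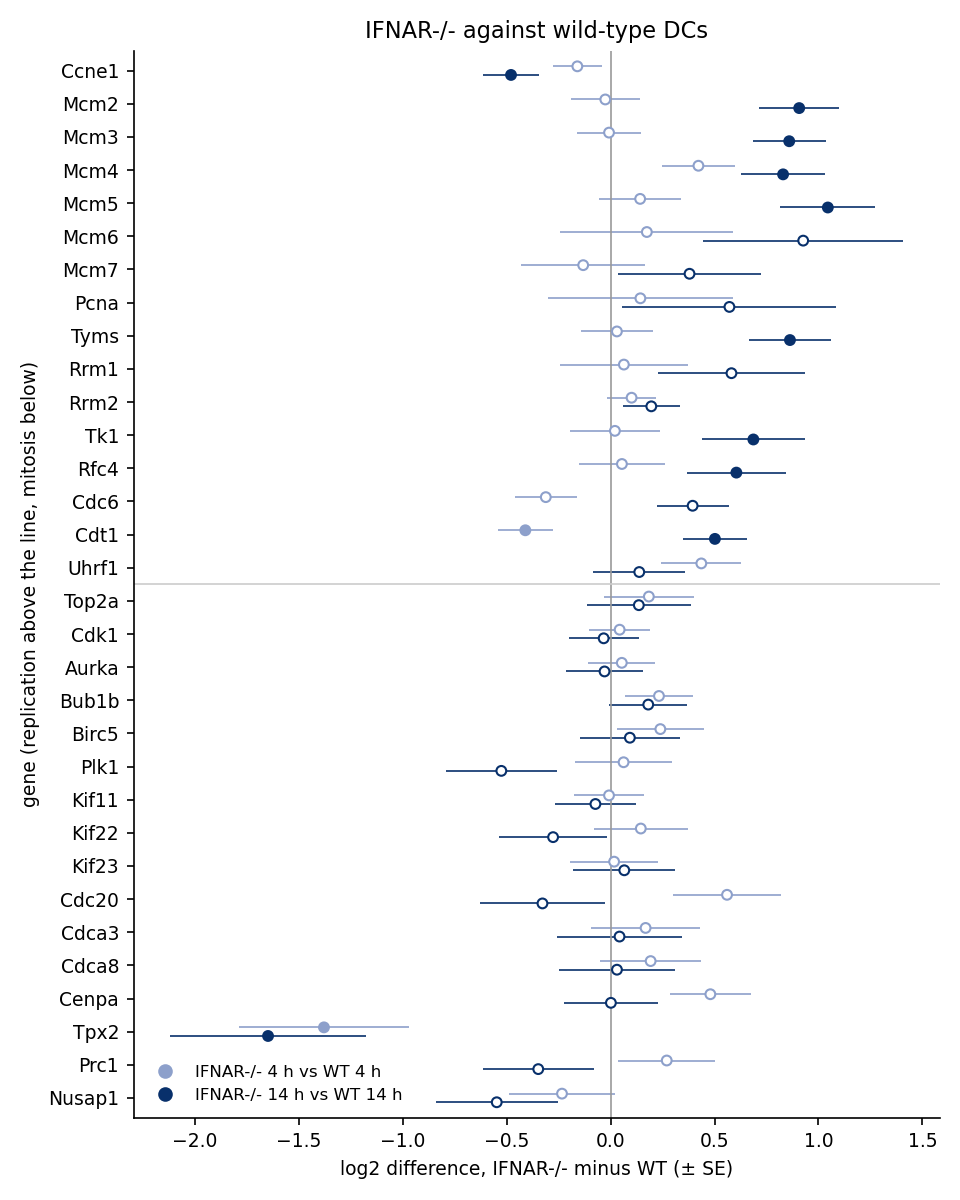
IFNAR-/- minus WT log2 difference (x axis, bars ± SE) for each of the 32 measured genes (y axis, replication genes above the grey line and mitosis genes below it) at 4 h and 14 h. Filled points had an adjusted p under 0.05, and at 14 h 8 replication genes lay above 0 and were filled.

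The difference between the 14 h and the 4 h IFNAR effect was tested as an interaction. It was higher in 6 of the 32 genes (7.67% of all genes), all of replication: Mcm2 (log2 0.93, adjusted p = 0.009996), Mcm3 (0.87, adjusted p = 0.008685), Mcm5 (0.90, adjusted p = 0.03683), Tyms (0.83, adjusted p = 0.02634), Cdc6 (0.71, adjusted p = 0.03133) and Cdt1 (0.91, adjusted p = 0.001617). By limma 0 genes had a lower interaction (9.55% of all genes), 1 at an unadjusted p under 0.05, and 0 genes passed the 2-fold limit in either direction (7.02% of all genes), also at an unadjusted p. The median was 0.61 over the replication genes and -0.15 over the mitosis genes. Without IFNAR-/- 14 h replicate 1 the count of 6 was 2, and without replicate 2 it was 3.

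Within IFNAR-/- DCs, 14 h samples were set against 4 h samples. Of the 32 genes, 7 were lower by limma (2.63% of all genes), all of mitosis, and 3 were higher (4.94%), Mcm2 (0.72, adjusted p = 0.0276), Mcm3 (0.73, adjusted p = 0.0137) and Cdt1 (0.67, adjusted p = 0.00952). The 2-fold limit was passed by 6 genes (1.96% of all genes), which were Nusap1 (-1.25, adjusted p = 0.0118), Kif22 (-1.15, adjusted p = 0.00821), Cdc20, the activator of the anaphase-promoting complex (-1.12, adjusted p = 0.0272), Prc1 (-1.10, adjusted p = 0.0151), Birc5 (-1.08, adjusted p = 0.00714) and Plk1 (-1.03, adjusted p = 0.0231). Cdk1 was lower by -0.67 (adjusted p = 0.0179). Groups did not overlap for 21 of the 32 genes, 7 of replication and 14 of mitosis (19.9% of all genes). Kif22, for example, fell from 9.66, 9.70, 9.32 and 9.53 at 4 h to the 14 h values given above. Without IFNAR-/- 14 h replicate 3 both the count of lower genes and the 2-fold count were 0, without IFNAR-/- 4 h replicate 5 there were 4 lower genes, and without IFNAR-/- 14 h replicate 1 there were 0 higher genes. By the methods' t-test 2 genes were lower, 0 were higher (5 by limma at an unadjusted p under 0.05) and 1 passed the 2-fold limit.

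Further genes of the same pathways, taken from separate lists, were counted in the same fit. Of 43 other replication genes 34 were measured, and in WT DCs at 14 h 19 were lower and 3 higher, with a median of -0.42 (27.7% and 19.6% of all genes), while in IFNAR-/- DCs 1 was lower (5.41%), with a median of 0.018. The IFNAR-/- minus WT difference at 14 h was higher for 13 and lower for 1 of them (median 0.32, 17.9% and 15.3% of all genes), and the interaction for 9 and 1 (7.67% and 9.55%). Of 58 other mitosis genes 39 were measured, and in WT DCs at 14 h 17 were lower (median -0.22) while in IFNAR-/- DCs 3 were lower (median -0.20). At 4 h in WT DCs 11 other replication genes were lower and 3 higher, and 3 other mitosis genes were lower and 7 higher, where 29.6% of all genes were lower and 16.9% higher. Members of these lists named next were chosen after their values were seen. Cdca7, an E2F target linked to DNA methylation, stood at 10.45, 10.23 and 9.96 in IFNAR-/- and 7.39 to 9.28 in WT 14 h samples and was higher by 1.77 (adjusted p = 3.6e-05). Tipin and Timeless guard the replication fork together. At 14 h Tipin was lower in WT DCs by -1.16 (adjusted p = 8.18e-05) and higher in IFNAR-/- than in WT DCs by 1.29 (adjusted p = 0.000921). Timeless was higher in WT DCs at 4 h by 1.15 (adjusted p = 5.02e-07), with an IFNAR-/- minus WT difference of -2.01 (adjusted p = 1.78e-09).

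The regulators upstream of both sets were counted in the same way. Of 19 genes of the Rb, E2F and DREAM group 16 were measured, of which 7 were lower and 2 higher in WT DCs at 14 h (27.7% and 19.6% of all genes) and 1 was lower and 2 were higher in IFNAR-/- than in WT DCs at that time (15.3% and 17.9%). E2f1, an activator of S phase genes, ranged from 9.06 to 9.44 in unstimulated samples and from 7.28 to 8.96 in WT 14 h samples, and stood at 9.88, 9.69 and 9.53 in IFNAR-/- 14 h samples. The 3 groups did not overlap. E2f1 was lower in WT DCs by -1.14 (adjusted p = 8.12e-06), and the IFNAR-/- minus WT difference was 1.55 (adjusted p = 1.09e-05). Rbl1 (p107), a pocket protein that holds E2F target genes down, was higher in WT DCs by 1.31 at 4 h (adjusted p = 1.4e-09) and by 1.31 at 14 h (adjusted p = 6.96e-09). Its IFNAR-/- minus WT difference at 4 h was -1.11 (adjusted p = 2.27e-06).

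Of the 8 inhibitors of cyclin-dependent kinases 7 were measured, and 4 were higher in WT and 4 in IFNAR-/- DCs at 4 h (16.9% and 6.97% of all genes). At 14 h 2 were lower and 3 higher in WT DCs (27.7% and 19.6% of all genes, median 0.043), and 1 was lower and 2 were higher in IFNAR-/- DCs (5.41% and 5.32%). Cdkn1a (p21) ranged from 9.05 to 11.74 in unstimulated samples and from 12.06 to 12.85 in WT 4 h samples, above all of them. It was higher by 2.31 in WT (adjusted p = 5.7e-08) and by 1.68 in IFNAR-/- DCs at 4 h (adjusted p = 0.000513), and by 1.43 and 1.91 at 14 h (adjusted p = 0.000191 and 0.000621). The IFNAR-/- 4 h samples (11.26 to 12.23) and the WT 14 h samples (10.89 to 11.77) overlapped the unstimulated range. Unstimulated replicates 1-2 to 5 stood at 10.34 to 11.74 and replicates 6 to 9 at 9.05 to 9.78, so these differences depend on the choice of unstimulated samples. The IFNAR-/- minus WT difference at 14 h was 0.48 (adjusted p = 0.403). Cdkn2b (p15) ranged from 7.81 to 9.05 in unstimulated and from 11.08 to 12.03 in WT 14 h samples and stood at 9.82, 9.88 and 9.96 in IFNAR-/- 14 h samples. At 14 h it was higher by 3.14 in WT (adjusted p = 1.67e-10) and by 1.41 in IFNAR-/- DCs (adjusted p = 0.00578). The IFNAR-/- minus WT difference at 14 h was -1.74 (adjusted p = 0.000308). At 4 h Cdkn2b was higher by 1.40 in WT (adjusted p = 3.3e-05) and by 2.12 in IFNAR-/- DCs (adjusted p = 1.02e-05). Cdkn2d was lower at 14 h than at 4 h in WT DCs by -1.16 (adjusted p = 4.43e-10). Of 10 G1 cyclins and kinases 8 were measured, among which Ccnd2 (cyclin D2) rose from between 8.27 and 9.31 in unstimulated samples to between 11.80 and 12.61 in WT 4 h samples. It was higher by 3.48 in WT (adjusted p = 4.93e-14) and 2.27 in IFNAR-/- DCs at 4 h (adjusted p = 1.73e-07), and lower in IFNAR-/- than in WT DCs by -1.21 at 4 h (adjusted p = 0.000461) and -1.15 at 14 h (adjusted p = 0.00241).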

How the data were processed

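RNA of sorted spleen DCs was hybridised to MouseRef-8 v2.0 BeadChips, 36 arrays in 6 groups taken from the sample labels. The authors exported an intensity per probe (average bead signal, not normalised, BeadStudio) with a detection p-value for each probe on each array, and deposited a second table of log2 values made in GeneSpring (low signals raised to background, quantile normalised, centred on each probe's median). Here the deposited signal was raised on each array to a floor, its lowest signal detected at p under 0.05 (74.362 to 107.64 units), log2 transformed and quantile normalised, and it correlated at 0.9672 to 0.9903 with the authors' table. Between 10428 and 12326 of 25697 probes (40.581 to 47.967%) were detected per array. Probes detected on at least 3 arrays were kept (14202), and the probe with the highest mean stood for its gene (9606 genes, 2589 with more than 1 kept probe). A gene symbol was known for 23978 probes, and 1719 had none here. The number of arrays limits the precision.

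A single model over all 33 samples was fitted with limma 3.58.1 in R 4.3.3, and p-values were adjusted over all genes by the Benjamini-Hochberg method. Calls are given at an adjusted p under 0.05, in each direction, and with a change of 2-fold or more. The procedure was tested on simulated data. Near-identical arrays (median absolute difference 0.0739 to 0.0832, against 0.105 to 0.408 in 99 other pairs) were averaged, a choice made after seeing the data, as was the use of sets of alike samples. Replicate numbers were taken to pair samples only where every same-numbered pair correlated above 0.1 after group means were removed, which held when unstimulated samples were set against PRR-/- or IFNAR-/- samples at 4 h (4 pairs each, 0.124 to 0.688 and 0.317 to 0.741). Named genes were Top2a, Cdk1, Pcna and Mcm2 with the 3 smallest p-values among the members in each main comparison, and other members are given by group. The members, the gene and marker lists and the DNA words were chosen with earlier results of these data known. Alternatives were background correction by neqc (offset 16), median scaling, all 36 arrays as samples, only the groups compared, the methods' multiple t-tests, other thresholds, the replicate block, the authors' table, probe and detection filters, and leaving out each sample.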

Additional observations from a re-analysis of the deposited data

Results flagged for a closer look

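Among 75 tested sets of sample values of the named genes, 2 held a sample far from the others of its group, where chance alone gives about 1 in 20. Both were Tpx2, in the unstimulated group, where replicate 1-2 was lowest at 7.083 with the next sample at 7.946, and in the IFNAR-/- 4 h group, where replicate 1-2 was lowest at 7.058 with the next at 8.42.

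The IFNAR-/- minus WT difference was larger at 14 h than at 4 h by the interaction test of limma for 6 replication genes. The interaction was 0.9328 on the log2 scale for Mcm2, 0.8668 for Mcm3, 0.9028 for Mcm5, 0.8325 for Tyms, 0.7065 for Cdc6 and 0.912 for Cdt1. The difference at 4 h was -0.03 for Mcm2, -0.01 for Mcm3, 0.14 for Mcm5, 0.03 for Tyms, -0.31 for Cdc6 and -0.41 for Cdt1.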

How the results depend on the processing

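Under the alternatives, the log2 differences of the named genes gave 1924 further values over 78 results, of which 1832 kept their direction and their side of the threshold, 63 lost the threshold, 29 gained it and 0 changed sign. Counts of members past the 2-fold limit rested on few genes and moved more. With neqc they were 7 for WT 14 h and 3 for IFNAR-/- 14 h against unstimulated DCs, 4 for IFNAR-/- against WT at 14 h, 3 for WT 14 h against 4 h and 2 for the interaction. With only the groups compared in the fit, IFNAR-/- against WT gave 0 at 4 h and 1 at 14 h, and IFNAR-/- 14 h against 4 h gave 2. The methods' t-test gave 0, 1 and 1 for these comparisons. At an adjusted p under 0.01 IFNAR-/- against WT at 4 h gave 0 and IFNAR-/- 14 h against 4 h gave 2. With all 36 arrays as samples IFNAR-/- 14 h against unstimulated gave 1. Without a fold limit the counts were 10 for WT, 5 for PRR-/- and 3 for IFNAR-/- at 4 h against unstimulated, 20 for WT and 6 for IFNAR-/- at 14 h, 2 and 10 for IFNAR-/- against WT at 4 h and 14 h, 17 for WT and 10 for IFNAR-/- 14 h against 4 h, and 6 for the interaction.

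With the replicate number as a block the 2-fold count of IFNAR-/- 14 h against unstimulated DCs was 5, where the numbers do not pair the samples, and Cdk1 and Mcm3 in IFNAR-/- DCs and Mcm3, Cdt1 and Cenpa in PRR-/- DCs at 4 h changed their calls as given with them. It changed no other call of a member in these PRR-/- and IFNAR-/- comparisons, whose numbers pair the samples. Where they do not pair, it moved calls of named genes: Mcm2 and Kif23 in WT DCs at 4 h and Top2a at 14 h. It also moved Cdt1 in IFNAR-/- against WT DCs at 4 h. Calls of further members moved too. The lower count was 10 instead of 6 for IFNAR-/- 14 h against unstimulated DCs and 13 instead of 7 against 4 h. For IFNAR-/- against WT at 14 h 7 were higher and 3 lower, instead of 8 and 2. The interaction was higher for 4 genes instead of 6. Settings added after seeing the data were sets of alike samples as a block, which gave 5 for WT and 3 for IFNAR-/- at 14 h against unstimulated and 5 for WT 14 h against 4 h, and a choice of unstimulated samples. Against unstimulated, that block sets the 14 h samples beside unstimulated 6 to 9 alone, so the 2 settings are not separate checks. With unstimulated 1 to 5 alone IFNAR-/- 14 h gave 1, and with 6 to 9 alone WT 14 h gave 5 and IFNAR-/- 14 h gave 2. The lower counts at an adjusted p were then 3 and 4 for WT, 2 and 3 for PRR-/- and 1 and 1 for IFNAR-/- at 4 h, and 14 and 17 for WT and 3 and 4 for IFNAR-/- at 14 h.

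Leaving out 1 sample at a time, the 2-fold counts stayed at 1 for WT and PRR-/- and 0 for IFNAR-/- at 4 h against unstimulated and at 0 for PRR-/- against WT. They ranged from 1 to 6 for WT 14 h (6 without WT replicate 1, 1 without replicate 6), from 0 to 3 for IFNAR-/- 14 h, from 0 to 1 and from 1 to 3 for IFNAR-/- against WT at 4 h and 14 h, from 0 to 3 for WT and from 0 to 7 for IFNAR-/- 14 h against 4 h, and from 0 to 3 for the interaction. Median scaling shifted the median of all genes by 0.135 for WT 4 h against unstimulated and by -0.161 for WT 14 h against 4 h. Relative to that shift the mitosis median of WT 4 h against unstimulated was -0.085 instead of 0.11 and that of PRR-/- 4 h -0.075 instead of 0.11, and for IFNAR-/- against WT at 14 h it was 0.15 instead of -0.031, with a replication median of 0.78 instead of 0.59. Genes near background, such as Pcna, had compressed differences.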

Other observations

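Genes of the p53 pathway and antiproliferative genes, 20 of 21 measured, moved in both directions. In WT DCs 8 were lower and 4 higher at 4 h (29.6% and 16.9% of all genes) and 5 lower and 7 higher at 14 h (27.7% and 19.6%), and in IFNAR-/- DCs 4 were lower and 2 higher at 4 h (11% and 6.97%) and 2 lower and 4 higher at 14 h (5.41% and 5.32%). The genes named here were chosen after their values were seen. Gadd45b, a stress gene that can slow the cell cycle, ranged from 9.92 to 11.03 in unstimulated and from 12.29 to 12.97 in WT 14 h samples and from 10.71 to 10.98 in IFNAR-/- 14 h samples, and it was higher in WT DCs at 14 h by 2.05 (adjusted p = 9.6e-10) and lower in IFNAR-/- than in WT DCs by -1.80 (adjusted p = 2.32e-06). Slfn2, an interferon-induced gene that restrains lymphocyte growth, ranged from 7.88 to 9.27 in unstimulated, from 10.06 to 10.93 in WT 4 h and from 8.42 to 8.99 in IFNAR-/- 4 h samples. It was higher in WT DCs at 4 h by 2.05 (adjusted p = 1.08e-07) and lower in IFNAR-/- than in WT DCs by -1.78 (adjusted p = 4.9e-05). Other called genes of the list behaved otherwise. Gadd45a was higher at 4 h by 1.27 in WT, 1.77 in PRR-/- and 1.18 in IFNAR-/- DCs (adjusted p = 0.000142, 4.72e-05 and 0.00764). Sesn1 and Klf4 were lower in WT DCs at 4 h by -1.02 and -1.03 (adjusted p = 9.59e-07 and 0.00566). Pmaip1 was lower in WT DCs at 14 h by -1.03 (adjusted p = 0.000127).

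Genes listed as markers of other cell types also gave signal outside the 14 h groups, and whether it came from such cells or from DCs was not tested. The 11 red pulp macrophage markers summed to 12240 to 18320 in PRR-/- 4 h samples and 6478 to 12790 in WT 4 h samples, against 4472 to 7123 in unstimulated samples. Of the 11, 8 were higher and 1 lower in PRR-/- DCs (13.1% and 24.2% of all genes). In WT DCs at 4 h 4 were higher and 1 lower (16.9% and 29.6%). The 3 measured B cell markers of 7 summed to 392.8 to 504.4 in unstimulated samples, with Cd79a and Pax5 detected on 0 arrays. Most of that sum was Cd79b (mean log2 8.062), since Ms4a1 and Blnk stood near the floor at 6.495 and 6.493. The 7 measured erythroid markers of 12 summed to 2019 to 3045 there, mostly through Tfrc (mean log2 10.41), with Gata1 detected on 0 arrays.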
